A study of Mus musculus with 6 samples.

Results

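The genes described here encode enzymes that make foreign compounds and endogenous wastes easier to excrete. They are the UDP-glucuronosyltransferases (Ugt1, Ugt2 and Ugt3 genes, 12 measured), the cytosolic and mitochondrial glutathione transferases (Gst, 17), the sulfotransferases (Sult, 13), the carboxylesterases (Ces, 8) and the flavin-containing monooxygenases (Fmo, 4). Members were chosen by gene symbol, by a rule written with earlier results of these data known, and numbered 54 of the 18048 genes that had a probe with a single symbol. Where a gene had several probes, the probe with the highest mean intensity over the 6 arrays stood for it.

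In these pathways Fmo enzymes add oxygen to nitrogen or sulfur atoms, and carboxylesterases split esters and amides. Ugt, Sult and Gst enzymes then attach a sugar, a sulfate or glutathione, which makes the product more soluble in water and a substrate for export pumps. In the kidney many of these enzymes are known from the proximal tubule, the nephron segment that also takes up and secretes organic anions and drugs.

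Kidney RNA from 6 mice was hybridised to 6 single-colour oligonucleotide arrays, 1 animal per array, from 3 wild-type animals and 3 homozygous mutants. For both genotypes a piece of kidney was taken, perfused with phosphate-buffered saline and flash-frozen. The sources used here name neither the mutated gene nor strain, age or sex, so no probe could serve as a check of the mutation. Intensities are on a linear scale on which 1 lies close to the median of an array, and levels and differences are on a log2 scale relative to that median.

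Signal over most of the array was dim, and each array had 39.0% to 43.1% of its values above a low-signal limit of 1.51 times the array median (0.59 log2). The kidney markers Umod, Slc12a3, Aqp2 and Slc34a1 lay above that limit on all 6 arrays. Xist, which silences an X chromosome in female cells, read 4.63 in wild-type replicate 1 and 7.93 in mutant replicate 1, and between 0.552 and 0.858 on the other 4 arrays. The Y-linked gene Eif2s3y read 0.0434 and 0.161 on those same 2 arrays and between 8.01 and 10.96 on the other 4. Replicate 1 of each genotype therefore stood apart from replicates 2 and 3 in sex-linked transcripts, in the same way in both genotypes.

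Of the 54 members, 46 passed the filter on dim probes and were tested. Of these, 6 had lower levels in mutant kidney and 0 had higher levels (limma with Benjamini-Hochberg adjustment over all 25834 probes, threshold 0.05). They were Ces1e, Fmo1, Ugt3a2, Sult1d1, Gstz1 and Ugt3a1, at least 1 from each of the 5 families. The 6 came to 13.0% of the members tested, while 1.59% of the 14796 genes tested fell and 5.68% rose. These shares are a description, since the choice of families was not blind to the data. At an unadjusted p under 0.05, 13 of the 46 members were lower and 1, Sult1a1, was higher, where 6.31% of all genes tested were lower and 14.6% higher.

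The median difference over the members tested was -0.26 log2, against 0.08 over all genes tested, and 32 of 46 differences were negative, against 42.5% of all genes. After quantile normalization the medians were -0.30 and -0.01, with 2.72% of genes lower, and after cyclic loess -0.31 and -0.01, with 2.69% lower. In both, 7 members were lower. With no intensity trend in the prior variance, limma passed 0 of the 46, with 10 lower and 1 higher at an unadjusted p under 0.05. By adjusted p that fit called few genes at all, with 0.0406% lower and 0.966% higher. Its all-gene shares by unadjusted p were not counted. Without mutant replicate 3 the number lower was 3. In RNA from pieces of kidney, fewer cells of a type and less RNA per cell cannot be told apart.

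**Figure D1:**
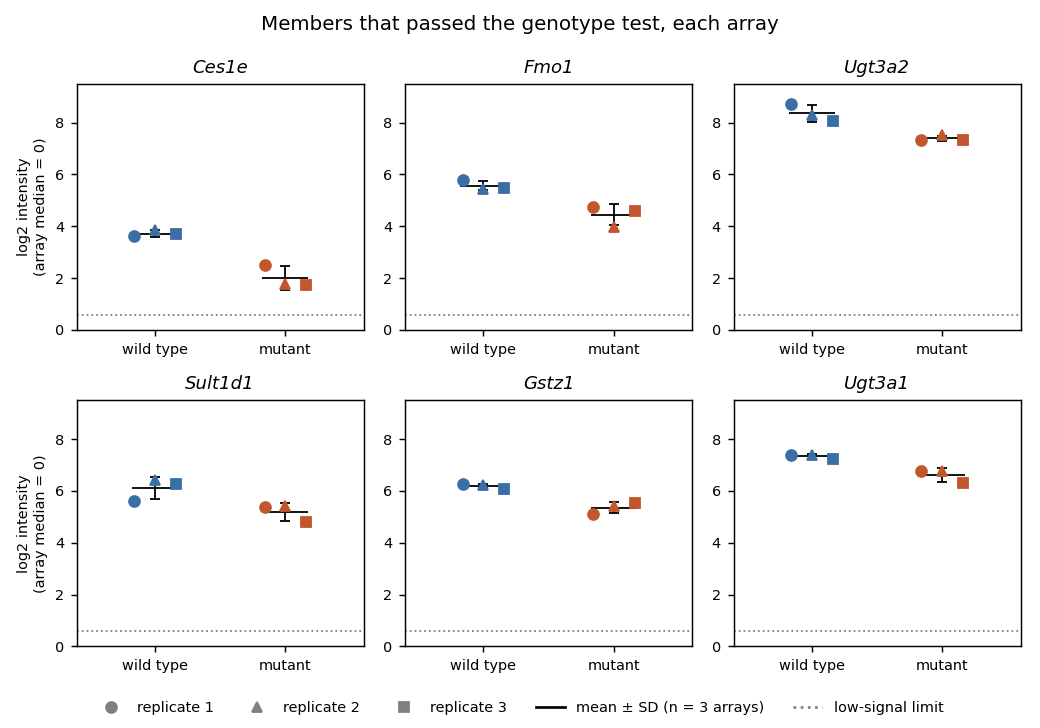
Log2 intensity relative to the array median (vertical axes) of the 6 members that passed, for each wild-type and mutant array, with symbols for the replicate number, bars for the mean ± SD of 3 arrays and a dotted line at the low-signal limit. In each panel the 3 mutant arrays lie below the 3 wild-type arrays and all 6 lie above the limit.

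Ces1e encodes a carboxylesterase of the endoplasmic reticulum, also known as egasyn, that holds beta-glucuronidase there in liver. Its intensity was 12.2, 14.3 and 12.7 in the wild-type arrays and 5.71, 3.37 and 3.31 in the mutant arrays. All mutant values lay below all wild-type values, and mutant replicate 1 was the highest of the mutant arrays. The level went from 3.72 ± 0.12 to 2.01 ± 0.45 log2 (SD, n = 3 each), a difference of -1.71 ± 0.21 (SE), or 3.27-fold lower (limma, adjusted p = 0.00021).

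Fmo1 encodes a flavin monooxygenase that oxygenates amines and thioethers. It read 54.5, 43.1 and 44.5 in wild type and 26.6, 15.8 and 24.0 in mutants, again without overlap. The difference was -1.12 ± 0.18 log2, or 2.18-fold lower (limma, adjusted p = 0.0022, n = 3 arrays per genotype). Gstz1, the zeta-class transferase that isomerises maleylacetoacetate in tyrosine breakdown, read 76.6, 74.6 and 67.7 in wild type and 34.6, 42.1 and 46.5 in mutants. It fell by 0.84 ± 0.15 log2 units, or 1.79-fold (limma, adjusted p = 0.0036). Ces1e, Fmo1 and Gstz1 passed in 19 of 20 fits, the exception being the fit with no intensity trend.

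Sult1d1 encodes a sulfotransferase that acts on dopamine and other catecholamines. Its intensities were 48.9, 85.6 and 76.0 in wild type and 40.8, 42.0 and 27.7 in mutants. Wild-type replicate 1 was the lowest of its genotype and lay near the upper mutant values. The difference was -0.91 ± 0.21 log2, or 1.88-fold lower (limma, adjusted p = 0.021). It was -1.24 (adjusted p = 0.0060) over replicates 2 and 3 alone, and the call was lost without wild-type replicate 2 (adjusted p = 0.086), wild-type replicate 3 (0.095) or mutant replicate 3 (0.104).

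Ugt3a1 and Ugt3a2 belong to a branch of the Ugt superfamily whose enzymes use sugar donors other than UDP-glucuronic acid. The genes are next to each other on chromosome 15 in the RefSeq annotation of GRCm38.p6. Ugt3a2 read 420, 308 and 267 in wild type and 161, 181 and 161 in mutants. It differed by -0.96 ± 0.21 log2, or 1.94-fold (limma, adjusted p = 0.013). The other Ugt3a2 probe, with intensities of 25.2, 25.1 and 26.5 against 11.3, 9.74 and 8.46, differed by -1.39 ± 0.14 (adjusted p = 4.9e-05) and passed in all 20 fits. Ugt3a1 read 166, 167 and 149 in wild type and 109, 108 and 78.6 in mutants, and differed by -0.72 ± 0.17, or 1.64-fold (limma, adjusted p = 0.027).

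For Ugt3a1 and the brighter Ugt3a2 probe the calls were lost in some fits with fewer arrays, while the differences stayed negative. With limma fits that lacked 1 array, the adjusted p of Ugt3a1 was 0.055 to 0.125 in 5 of the 6 cases and 0.042 without mutant replicate 1. That of the brighter Ugt3a2 probe was 0.054 without mutant replicate 1 and 0.062 without mutant replicate 3. Over replicates 2 and 3 alone, Ugt3a1 differed by -0.78 (adjusted p = 0.053) and the brighter Ugt3a2 probe by -0.75 (adjusted p = 0.063).

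Sequences upstream of the start site were taken from RefSeq's promoter windows of GRCm38.p6, which matched 46 of the 54 members. They are shown for 3 of the members that fell, so that the 5′ flanks of a carboxylesterase, a sulfotransferase and a Ugt gene can be read beside their values. Each run is the 250 bases before the start, 5′ to 3′ on the gene's strand. The windows lie at chr8:93229620-93229869 (minus strand) for Ces1e, chr5:87569007-87569256 (minus strand) for Sult1d1 and chr15:9279579-9279828 (plus strand) for Ugt3a1. Capitals mark a match to GTTAATNAT, a core of the site bound by the factor HNF1.
Ces1e: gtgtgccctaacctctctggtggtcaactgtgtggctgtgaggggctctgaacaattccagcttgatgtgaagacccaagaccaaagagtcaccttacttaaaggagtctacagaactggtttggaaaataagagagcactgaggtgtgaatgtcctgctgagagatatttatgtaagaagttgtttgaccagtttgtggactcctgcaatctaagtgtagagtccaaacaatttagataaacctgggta
Sult1d1: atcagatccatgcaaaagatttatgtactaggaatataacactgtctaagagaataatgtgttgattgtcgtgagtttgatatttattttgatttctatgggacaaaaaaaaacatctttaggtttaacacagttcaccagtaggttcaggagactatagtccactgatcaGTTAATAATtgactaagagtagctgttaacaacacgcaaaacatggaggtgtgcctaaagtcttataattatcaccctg
Ugt3a1: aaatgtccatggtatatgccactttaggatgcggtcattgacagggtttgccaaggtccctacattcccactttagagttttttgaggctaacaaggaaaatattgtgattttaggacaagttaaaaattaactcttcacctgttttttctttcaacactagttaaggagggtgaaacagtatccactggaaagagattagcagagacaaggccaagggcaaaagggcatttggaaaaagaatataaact

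The whole windows, which have the same length for every gene and run past the start site, were searched on both strands for 2 motifs, which do not overlap in any member. GTTAATNAT was found in 1 of 55 member windows, that of Sult1d1, where the match begins 79 bases before the start, and in 0.80% of all 32851 windows. TGACNNNGC, the core of the antioxidant response element bound by the factor Nrf2, was found in 3 member windows, those of Gsta3, Gstm5 and Gstm7, and in 12.4% of all windows. Fmo1 and Ugt3a2 were not among the genes with a window. A match describes letters only.

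**Figure D2:**
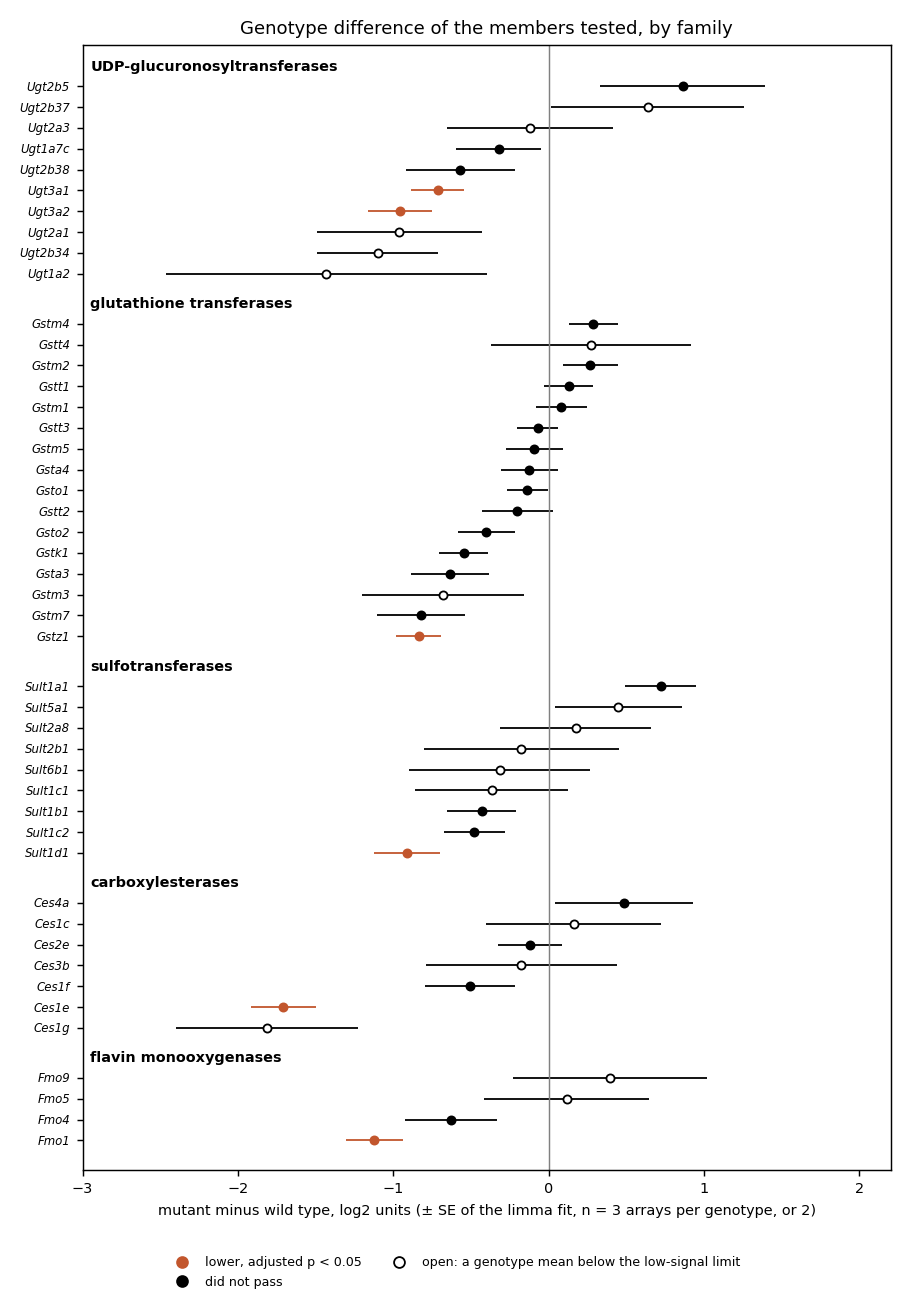
Difference between mutant and wild-type kidney in log2 units (horizontal axis, points with ± SE of the limma fit) for the 46 members tested, sorted within the 5 families. Orange points passed the threshold, all 6 to the left of 0, and open points had a genotype mean below the low-signal limit.

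Among the Ugt genes, 2 of 10 tested fell and 0 rose, and 3 were lower at an unadjusted p under 0.05. Over all genes tested 1.59% fell and 5.68% rose, and 6.31% were lower and 14.6% higher at that unadjusted p. The same shares stand beside the counts of every family below, where 1 call describes a gene and not its family. The median difference of the Ugt genes was -0.64 log2, and 8 of 10 differences were negative, against 42.5% of all genes. Both calls were Ugt3 genes, while 0 of 6 tested Ugt2 genes passed. Ugt2b34, from a subfamily known for glucuronidation of steroids and bile acids, read 2.74, 2.28 and 2.53 in wild type and 1.85, 0.678 and 1.27 in mutants. The groups did not overlap, but the mutant mean lay below the low-signal limit and the gene did not pass (limma, adjusted p = 0.144). The wild-type mean lay 1.67-fold above the limit, a point value without sampling error. Ugt1a7c, from the locus whose members share their last exons, differed by -0.32 ± 0.27 and did not pass.

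Of 8 Ugt1, Gst and Ces probes that matched several symbols and were left out of the members, 1 passed. It was a probe shared by Ces1f and Ces1d, which read 11.4, 16.4 and 12.7 in wild type and 4.28, 5.01 and 4.63 in mutants, a difference of -1.52 ± 0.17 log2 (limma, adjusted p = 0.00012). The RefSeq order of genes on chromosome 8 places Ces1d before Ces1e and Ces1f after it. Carboxylesterase genes of this cluster are close copies, and probe sequences were not used here. How far the Ces1e probe and this shared probe read the same transcripts was therefore not tested. Ces1f's 2 own probes differed by -0.51 ± 0.29 (adjusted p = 0.419) and -0.82 ± 0.29 (adjusted p = 0.148), and neither passed. The mutant and wild-type values overlapped in both. A probe shared by 8 Ugt1a genes differed by -0.04 ± 0.25, one shared by Gstp1 and Gstp2 by 0.09 ± 0.17, and 2 shared by Gsta1 and Gsta2 by -0.32 ± 0.22 and -0.43 ± 0.24. None of these 4 passed.

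Glutathione transferases were the largest family, with 1 of 16 tested lower and 0 higher, and with a median difference of -0.13 log2. At an unadjusted p under 0.05, 5 were lower and 0 higher. The mu class, a cluster on chromosome 3 that includes known Nrf2 targets, had 0 of 6 members past the threshold and a median of -0.01. Gstm1 read 132, 124 and 108 in wild type and 111, 143 and 132 in mutants, so the groups overlapped. Its difference was 0.08 with a 95% interval from -0.27 to 0.44 log2. Gstm5 differed by -0.09 (95% interval -0.49 to 0.30), and Gstm2 by 0.27 (-0.11 to 0.65). Gstm4 read 9.25, 10.7 and 10.96 in mutants against 7.35, 9.03 and 8.96 in wild type, without overlap, but did not pass (limma, adjusted p = 0.382). Gstm7 went the other way without overlap, with 2.31, 1.94 and 1.78 in mutants against 4.60, 3.83 and 2.51, and also did not pass (adjusted p = 0.133).

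In the theta class Gstt1 and Gstt3 differed by 0.13 ± 0.16 and -0.07 ± 0.13 log2. The omega-class gene Gsto1, whose enzyme reduces dehydroascorbate, read between 19.9 and 25.6 on all 6 arrays and differed by -0.14 ± 0.13. Its neighbour Gsto2 was lower on every mutant array, at 6.10, 4.54 and 6.99 against 7.75, 7.96 and 7.25, and did not pass (limma, adjusted p = 0.290). In the alpha class Gsta4, which conjugates the lipid peroxidation product 4-hydroxynonenal, differed by -0.13 with a 95% interval from -0.52 to 0.27. Gsta3 differed by -0.64 ± 0.25 (adjusted p = 0.204). It passed without wild-type replicate 2, at -0.97 (adjusted p = 0.017), and differed by -0.34 without wild-type replicate 3. Gstk1, the kappa-class enzyme of mitochondria and peroxisomes, lay just outside the threshold. It read 13.3, 17.8 and 13.5 in wild type and 9.95, 9.29 and 11.01 in mutants, a difference of -0.55 ± 0.16 (adjusted p = 0.061). After quantile normalization its adjusted p was 0.010, and after cyclic loess it was 0.012.

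Of 13 sulfotransferases, 9 were tested, 1 fell and 0 rose. Sult1a1, a phenol sulfotransferase, was the member with the largest difference upwards among those whose groups did not overlap. It read 3.08, 4.40 and 2.68 in wild type and 5.86, 5.98 and 4.63 in mutants, a difference of 0.72 ± 0.23 log2 that did not pass (limma, adjusted p = 0.099). It passed with array weights (adjusted p = 0.043), with a replicate block (0.044) and without wild-type replicate 2 (0.039). Sult1b1, which acts on thyroid hormones, lies beside Sult1d1 on chromosome 5. Its probe had a value on 2 wild-type arrays and differed by -0.43 ± 0.22, while a dimmer probe differed by -0.52 ± 0.34, and neither passed. Sult1c2 differed by -0.48 ± 0.20 and did not pass. The other members tested, Sult1c1, Sult2a8, Sult2b1, Sult5a1 and Sult6b1, had a genotype mean below the low-signal limit.

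Among the carboxylesterases 1 of 7 tested fell and 0 rose, and 2 were lower at an unadjusted p under 0.05. Ces1g, from the same cluster as Ces1e, had intensities near the background. It read 0.848, 3.19 and 2.11 in wild type and 0.955, 0.0683 and 0.476 in mutants, so wild-type replicate 1 lay below mutant replicate 1. No mutant array was above the low-signal limit, and the wild-type mean lay 1.19-fold above it, a point value without sampling error. Ces1g did not pass (limma, adjusted p = 0.106). It passed over replicates 2 and 3 alone (adjusted p = 0.016), without wild-type replicate 1 (0.035) and with array weights (0.024). Ces2e, of the Ces2 cluster, read between 4.44 and 6.65 on all arrays and differed by -0.12, with a 95% interval from -0.56 to 0.32. Among 4 Fmo genes, 1 fell and 0 rose. Fmo4, the neighbour of Fmo1 on chromosome 1, read 3.15, 3.73 and 3.18 in wild type and 1.42, 2.81 and 2.52 in mutants. The groups did not overlap, and the difference of -0.63 ± 0.29 did not pass (adjusted p = 0.298). Fmo5 and Fmo9 lay below the low-signal limit on all arrays with a value.

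Counted without a model, all 3 mutant values lay below all 3 wild-type values in 12 of the 42 members tested and measured on all 6 arrays (28.6%), against 8.89% of 13489 genes. The opposite order occurred in 2 of 42, Gstm4 and Sult1a1, against 17.8% of genes. The 12 included 4 Ugt, 4 Gst, 1 Sult, 1 Ces and 2 Fmo genes. Many members were dim, and 18 of 54 lay above the low-signal limit on no array. These 18 included 7 of the 13 sulfotransferases. The 8 members that were not tested, Ces3a, Gstp3, Sult1e1, Sult2a2, Sult3a1, Sult4a1, Ugt2b1 and Ugt2b35, all belonged to them.

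In Ugt2b38 and Ugt2b5 wild-type replicate 1 was the lowest wild-type array by a wide margin. In Ugt1a2 it was the highest, but wild-type replicate 2 stood furthest apart on the log2 scale (3.04, -1.79 and 1.72 in replicates 1 to 3). Ugt2b38 read 26.1 in wild-type replicate 1 against 98.8 and 74.9 in wild-type replicates 2 and 3, and 32.0 in mutant replicate 1 against 39.4 and 47.0 in mutant replicates 2 and 3. Over all arrays the genotypes overlapped and the difference of -0.57 ± 0.35 log2 did not pass (limma, adjusted p = 0.470). Over replicates 2 and 3 alone it was -1.002 (adjusted p = 0.010), and without wild-type replicate 1 it was -1.14 (adjusted p = 0.0035).

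Ugt1a2 was highest in replicate 1 of each genotype, at 8.19 against 0.0945 and 3.27 in wild type and 3.03 against 0.450 and 0.0676 in mutants. Its SE of 1.03 log2 was the largest of the members. Ugt2b5 read 0.655 in wild-type replicate 1 and between 2.82 and 4.80 on the other 5 arrays. Its difference was 0.86 ± 0.53 over all arrays and -0.08 over replicates 2 and 3. These 3 genes were singled out after their values had been seen. Whether the genotype difference of any member depended on sex was not tested, because the pattern separates 1 array per genotype from the other 2.

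**Figure D3:**
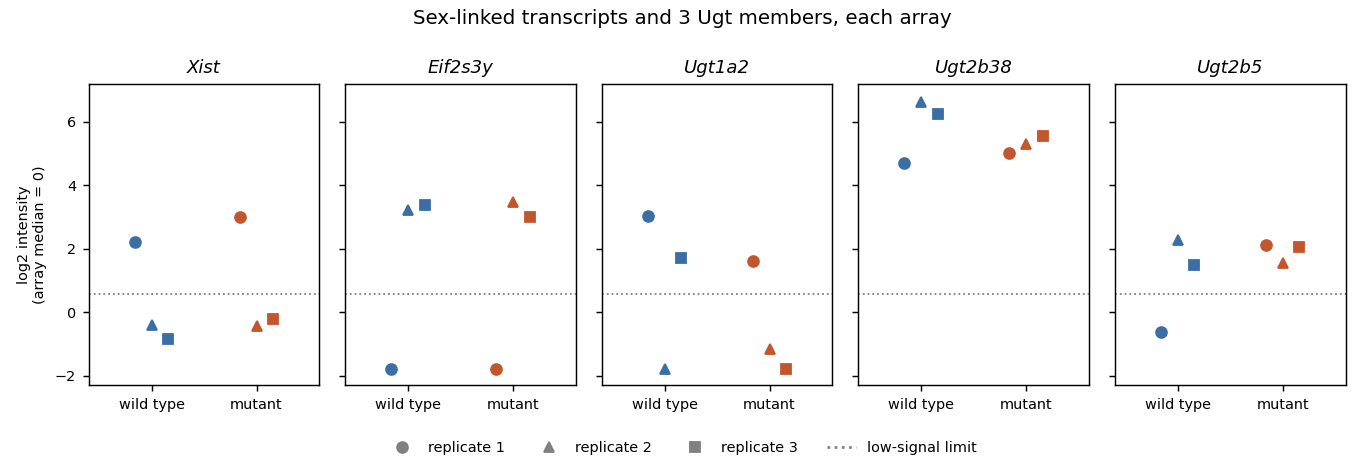
Log2 intensity relative to the array median (vertical axis) of Xist, Eif2s3y, Ugt1a2, Ugt2b38 and Ugt2b5 for each array, with circles for replicate 1, triangles for replicate 2, squares for replicate 3 and a dotted line at the low-signal limit. The circles stand apart from the other symbols in both genotypes for Xist and Eif2s3y, and in wild type for Ugt2b38 and Ugt2b5.

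Markers of the proximal tubule moved with the members. Of 15 measured, 6 fell and 0 rose, where 1.59% and 5.68% of all genes did. All 15 differences were negative (42.5% of all genes were), and the median was -0.76 log2. The summed intensity of the list was 1360 to 1521 in wild type and 750 to 811 in mutants, where Slc5a12 had no value in replicate 1, and 0 of its genes were below the low-signal limit on all arrays. Of 7 fibroblast and pericyte genes all 7 rose, with a summed intensity of 114 to 143 in wild type and 408 to 437 in mutants. Of 7 macrophage genes 5 rose, with sums of 25.02 to 32.6 and 118 to 165, and only Adgre1 was below the limit on all arrays. The part of these shifts in cell markers in the members' decreases was not tested. Of 5 liver markers tested 0 fell and 1 rose (Fgb), and Serpina1c and Tat were below the limit on all arrays.

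Other genes of detoxification, form a list that holds none of the members. Of 65 tested, 14 fell and 2 rose, where 1.59% and 5.68% of all genes did, with a median of -0.32 log2 and 47 negative differences, against 42.5% of all genes. At an unadjusted p under 0.05, 23 were lower and 5 higher, where 6.31% of all genes tested were lower and 14.6% higher. The 14 came to fewer, 8, without wild-type replicate 3 or mutant replicate 2, and to 0 with no intensity trend, where limma passed none.

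Among genes listed as mercapturate enzymes, some of which trim glutathione conjugates, 3 of 8 fell and 0 rose. The brush-border dipeptidase Dpep1 fell by 0.90 ± 0.19 log2 units, the aminoacylase Acy1 by 0.93 ± 0.14 and the gamma-glutamylcyclotransferase Ggct by 0.97 ± 0.16. The gamma-glutamyltransferase gene Ggt5 went the other way without passing (limma, adjusted p = 0.057, past the threshold in 4 of 20 fits). It read 2.82, 2.08 and 2.73 in mutants against 1.41, 0.570 and 1.04 in wild type, without overlap. No wild-type array was above the low-signal limit, and the mutant mean lay 1.68-fold above it, a point value without sampling error. Among other transferases 5 of 11 fell and 1 rose. Glyat, which joins glycine to benzoate and similar acids, fell by 0.95 ± 0.17, the methyltransferase Inmt by 1.22 ± 0.31, and Acsm1, which activates medium-chain acids, by 1.02 ± 0.26. Nnmt, which methylates nicotinamide, rose by 1.55 ± 0.31, with 2 mutant arrays measured. Glyat passed in 19 of 20 fits, but Inmt in 10 and Acsm1 in 12, and Nnmt passed in 15 of the 16 fits that could test it.

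Among other hydrolases 4 of 10 fell and 1 rose. Cmbl, a carboxymethylenebutenolidase, fell by 0.79 ± 0.14 log2 units, the arylacetamide deacetylase Aadac by 0.83 ± 0.16, the soluble epoxide hydrolase Ephx2 by 0.61 ± 0.14 and the hydrolase Bphl by 0.65 ± 0.15. Cmbl and Aadac passed in 19 of 20 fits, Ephx2 in 16 and Bphl in 13. Beta-glucuronidase, encoded by Gusb, which removes glucuronic acid, rose by 0.71 ± 0.19 (limma, adjusted p = 0.043) and passed in 9 of 20 fits. Among export pumps 1 of 7 fell, Abcg2, by 0.99 ± 0.15, and 5 of 7 were lower at an unadjusted p under 0.05.

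Of 7 genes that supply UDP-glucuronic acid, the sulfate donor PAPS or glutathione, 0 fell or rose, and 2 were lower at an unadjusted p under 0.05. All 7 differences were negative (42.5% of all genes were), with a median of -0.32 log2. Ugdh, which makes UDP-glucuronic acid, differed by -0.32 ± 0.15 and the glutathione synthesis gene Gclc by -0.41 ± 0.17. Of 4 microsomal glutathione transferases and relatives tested 0 passed, also at an unadjusted p under 0.05. Of 9 genes of electron supply and reduction 0 passed, with 1 higher (Cbr3) and 1 lower (Cyb5a) at an unadjusted p under 0.05. Of 9 regulators tested 1 fell, Hnf4a, a factor of proximal tubule and liver genes, by 0.76 ± 0.15 log2 units. Hnf4a is also 1 of the proximal tubule markers above, so both lists count it. Nfe2l2, which encodes Nrf2, differed by 0.26 ± 0.15 and its target Nqo1 by -0.05 ± 0.32, and neither passed.

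**Figure D4:**
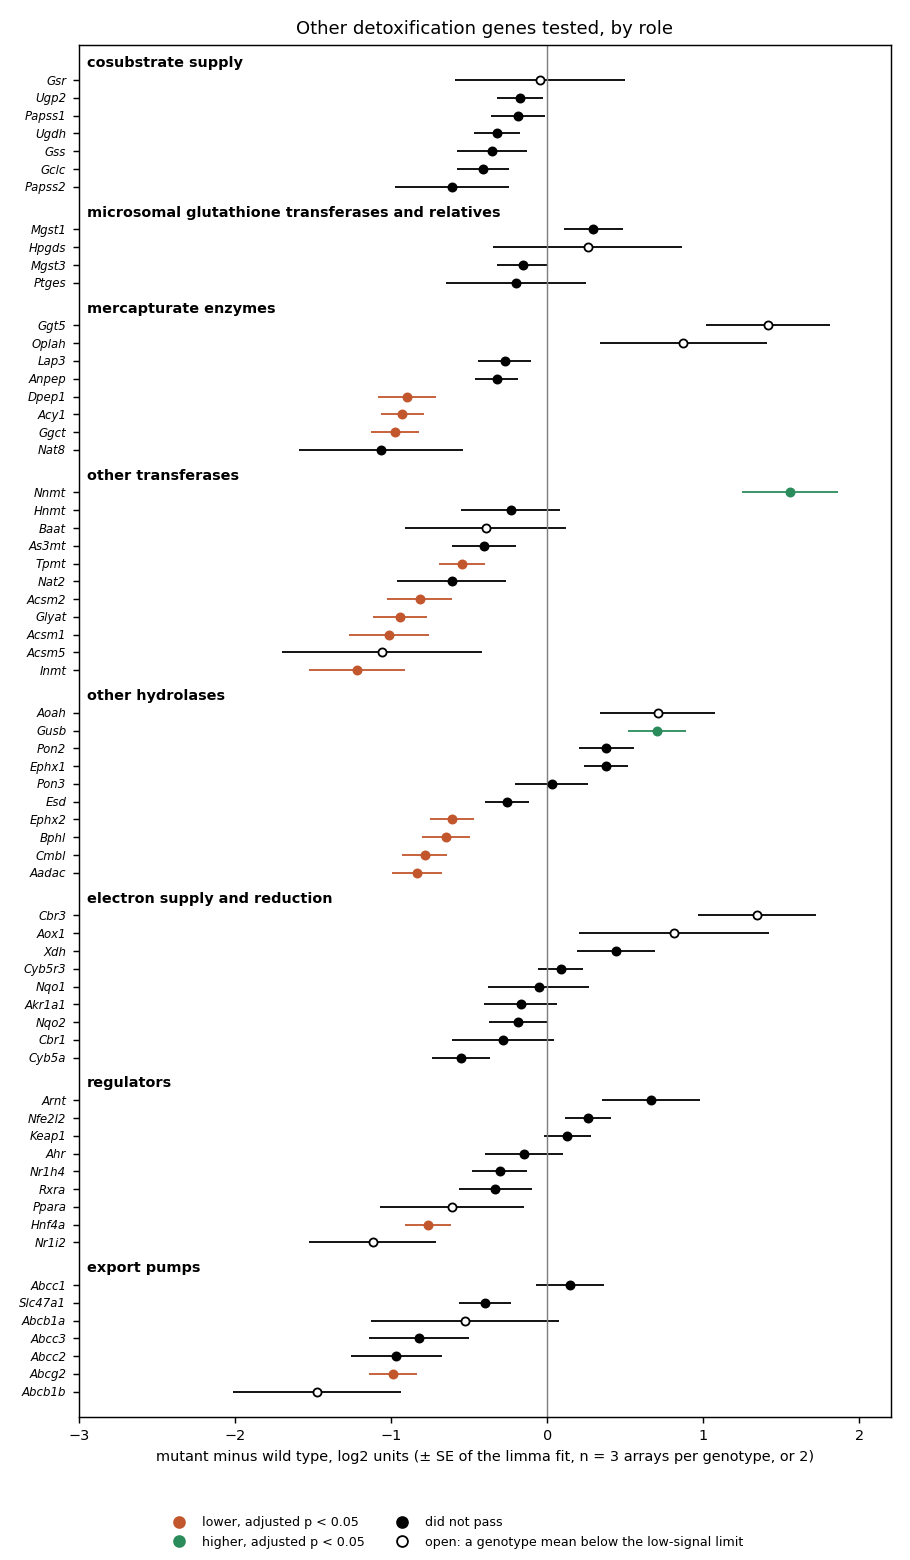
Difference between mutant and wild-type kidney in log2 units (horizontal axis, points with ± SE of the limma fit) for 65 other detoxification genes tested, sorted within 8 roles. Orange points are the 14 that fell, green points the 2 that rose (Nnmt and Gusb), and open points had a genotype mean below the low-signal limit.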

How the data were processed

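The authors deposited a linear intensity for every probe on each array. Array medians lay between 0.994 and 0.997 and some deposited intensities were negative. The sources used here do not say how background and scale were set. Per the labels, RNA was labelled with biotin by the CodeLink protocol. The p-values rest on the spread between animals, with each probe's variance drawn towards that of probes of similar intensity.

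Each array was divided by its median, intensities of 0 or less became missing, and the rest were floored at the 10th percentile of positive values (0.290) before log2 was taken. Negative values have no logarithm, so the dimmest probes are the least certain. Probes with at least 2 values per genotype were kept, the lowest 25% by mean level left out, and 25834 tested with limma 3.58.1 in R 4.3.3 (lmFit, eBayes with an intensity trend, two-sided, Benjamini-Hochberg). The code was tested on simulated data. Errors of differences are SEs of the fit, and 3 arrays per genotype limit the precision. The low-signal limit is the mode of the linear values (0.521) plus 3 times the spread below it (0.329). Where a mean lies below it, the fold of the other mean over the limit is given, a point value without sampling error.

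Symbols came from the platform annotation. All 54 members matched RefSeq (GRCm38.p6) with the same symbol. Named members were those past the threshold, Ces1e, Fmo1, Sult1d1, the brightest probe and smallest p per family, and those at least 1 log2 unit apart without overlap. Among other detoxification genes the 4 smallest p per role among those past the threshold were named. Further genes are named to describe their family and were chosen after their values were seen. Members and lists were chosen with earlier results of these data known. The labels do not say that equal replicate numbers pair animals, so no block was used in the reported fit. Deviations of same-numbered arrays correlated at 0.07, 0.02 and 0.07, which neither shows nor excludes a pairing. Alternatives covered scaling, floor, filters, variance model, array weights, replicate block, replicates 2 and 3 alone, probe choice and leaving out each array.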

Additional observations from a re-analysis of the deposited data

How the results depend on the processing

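The median difference over the members stayed negative, between -0.39 and -0.19 log2, in all 20 alternatives. The number of members lower was 6 to 9 in 13 of the 14 alternatives that left out no single array, and 0 with no intensity trend. It was 3 to 7 with 1 array left out, where 0.80% to 1.75% of all genes were lower. With no single array left out, that share was 0.0406% with no intensity trend and otherwise 1.31% to 2.72%. It was not counted for the alternative probe choice. Ces1e, Fmo1 and Gstz1 passed in all of these alternatives except the fit with no intensity trend. The number of members higher was 0, or 1 (Sult1a1) with array weights, with the replicate block and without wild-type replicate 2, so 0 to 1 with 1 array left out. Over all genes 840 rose and 235 fell, and the split was 700 and 402 after quantile normalization and 745 and 398 after cyclic loess. With the replicate block 9 members were lower, where 2.46% of all genes were. The added members were Ces1f, Gsta3 and Gstk1 (limma, adjusted p = 0.023, 0.041 and 0.041), and the block changed no call of the 6 reported. Every array correlated best with the array of its own number in the other genotype, at 0.07 or less, which neither shows nor excludes a pairing. The difference of Gstm1 changed sign without wild-type replicate 3, at -0.00021, and was at most 0.18 with 1 array left out. Other detoxification genes higher numbered 3 with array weights, with no filter on dim probes, with robust variance and with the lowest 50% of probes left out, 4 with the replicate block, 1 with quantile normalization, cyclic loess, no floor, a pseudocount of 0.5 or values on all 6 arrays, 0 with no intensity trend or over replicates 2 and 3 alone, and 0 to 2 with 1 array left out. Those lower numbered 0 with no intensity trend and 8 to 14 with 1 array left out, and 10 to 16 otherwise. Signal near background limits the 18 members above the low-signal limit on no array.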
